A study of Mus musculus with 6 samples.

Results

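The RNA came from primary OT-I T cells, taken from lymph nodes of mice and treated for 2 h with DSF or with DMSO. DSF is read as disulfiram, a drug against alcohol dependence, and DMSO as the solvent dimethyl sulfoxide. Cells of both groups grew in RPMI medium with serum and 2-mercaptoethanol. Described here are 9 genes for receptors by which T cells hold on to other cells and to matrix, of 55536 genes in the deposited table. They are Cd44, Adgre5, Cd55 and the integrin subunit genes Itgal, Itgb2, Itga4, Itgb1, Itgb7 and Itgae, taken by symbol, and all 9 were found. They were chosen by name with their DSF against DMSO values from these libraries already known, so their differences are given as descriptions, without p-values. OT-I T cells share a single transgenic receptor that sees a peptide of ovalbumin, and both groups are labelled wildtype. Each group held 3 libraries called biological replicates, and no label ties them to separate mice or cultures, so the spread between libraries may be technical. The concentration of DSF, any stimulation of the cells and the age of the animals are not given in the labels. Reading the deposited group codes DF and DO as DSF and DMSO sets every direction below.

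An integrin is a pair of an alpha and a beta chain that binds ligands on other cells or in matrix, and it is switched to its binding state by signals inside the cell that pull on the beta chain through talin and kindlin. T cells use LFA-1, made of the Itgal and Itgb2 products, to bind ICAMs, and the Itga4 product with that of Itgb1 or Itgb7 to bind VCAM-1, fibronectin or MAdCAM-1. CD44 binds hyaluronan and is high on activated and memory T cells. CD97, the product of Adgre5, is an adhesion G protein-coupled receptor whose ligands include CD55, a complement regulator anchored in the membrane. The Itgae product pairs with the Itgb7 product to bind E-cadherin on epithelium.

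The DSF libraries held 18082264, 19611354 and 20951998 counts, and the DMSO libraries 18528236, 21893720 and 20149539. All 9 T cell markers were detected and summed to 1884 to 1946 CPM (counts scaled by TMM to library size) in DSF libraries, against 2074 to 2113 CPM in DMSO libraries. Cd4 averaged only 1.63 CPM with DSF and 1.22 CPM with DMSO. Of these T cell markers Cd3g, Cd247, Cd8a and Lat were called as changed, each with a lower mean with DSF. The 12 myeloid and dendritic cell markers summed to 28.2 to 29.0 CPM in DSF libraries, against 33.3 to 34.6 CPM in DMSO libraries, with Siglech at 0 and Xcr1 the 1 called. Xcr1 alone averaged 5.38 ± 1.10 CPM with DSF and 10.7 ± 1.59 CPM with DMSO (SD), so most of that list's difference lay in this gene. The 6 B cell markers summed to 34.1 to 36.7 CPM in DSF libraries, against 33.9 to 37.4 CPM in DMSO libraries, and the 4 natural killer cell markers to 5.94 to 8.37 CPM in DSF libraries, against 6.60 to 7.69 CPM in DMSO libraries. The 9 stromal, endothelial and epithelial markers summed to 12.1 to 13.8 CPM in DSF libraries, against 9.35 to 11.7 CPM in DMSO libraries, with Epcam called. Of the 6 platelet markers, 4 lay below 1 CPM in every library, and the list summed to 74.6 to 76.5 CPM in DSF libraries, against 71.0 to 75.3 CPM in DMSO libraries, mostly from Itgb3. The part of these markers in the results below was not tested. In such bulk libraries, fewer cells of a type, less RNA per cell and a change in single marker genes cannot be told apart.

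Promoters are shown first for the member that stood well above DMSO and for the member furthest below it among those in the RefSeq table, which held 5 of the 9 genes (Cd44, Cd55, Itga4, Itgb1 and Itgb7, build GRCm38.p6). Each sequence runs 5′ to 3′ on the strand of its gene from 250 bases before to 50 bases after the start site. Capitals mark GGGCGG, the GC box bound by SP and KLF factors, on either strand. The Cd44 window is chr2:102901616-102901915 on the minus strand and the Itga4 window is chr2:79255176-79255475 on the plus strand.
Cd44: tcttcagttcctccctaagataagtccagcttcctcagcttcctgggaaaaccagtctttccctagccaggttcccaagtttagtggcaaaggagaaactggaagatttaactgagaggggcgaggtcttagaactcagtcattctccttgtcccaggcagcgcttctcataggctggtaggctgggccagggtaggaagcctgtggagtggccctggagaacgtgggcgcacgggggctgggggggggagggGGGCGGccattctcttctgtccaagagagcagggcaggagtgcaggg
Itga4: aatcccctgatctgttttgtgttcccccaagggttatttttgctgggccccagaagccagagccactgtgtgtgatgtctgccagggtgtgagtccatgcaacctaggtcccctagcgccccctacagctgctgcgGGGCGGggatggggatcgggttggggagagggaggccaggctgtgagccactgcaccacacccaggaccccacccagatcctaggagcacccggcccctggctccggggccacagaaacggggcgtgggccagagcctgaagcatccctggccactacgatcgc

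The Cd44 window held 1 GC box, which begins at base 4 counted from the start site as base 1, and the Itga4 window held 1 at position -114, where negative positions lie before the start. Of 32817 promoters of the same length, 35.6% held at least 1. The windows of Cd55 and Itgb1 held 2 and 1 GC boxes, and that of Itgb7 held none. TGANTCA, which AP-1 binds, GCGNGGGCG, which EGR factors bind, CCGGAAG for ETS factors, TTCNNNGAA for STATs and the NF-kappaB motif were in none of the 5 windows on either strand. The shares of all promoters with these motifs were 7.81%, 5.56%, 8.86%, 8.29% and 8.46%. TGGAAA, for NFAT, was in the Itgb1 window at position -160 and in 21.4% of all promoters. These matches describe letters only.

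Adgre5 stood out among the 9 genes. It lies on chromosome 8 at 83723251 to 83741326 of GRCm38 (ENSMUSG00000002885). Its level in TPM, which is scaled to gene length and library, was 402, 397 and 407 in the DSF libraries, against 103, 114 and 116 in the DMSO libraries. Every DSF library lay far above every DMSO library, and the 3 DSF values lay within a few percent of each other. In CPM it averaged 775 ± 12.2 with DSF and 222 ± 5.36 with DMSO (SD, n = 3 each), a log2 fold change of 1.81 ± 0.03 (SE) or 3.50-fold. It had the 4th largest log2 fold change among the 2299 tested genes that averaged 100 CPM or more. Among all 14318 tested genes it was the 65th largest. In TPM it was the 287th to 298th most abundant gene in DSF libraries, against the 1089th to 1216th in DMSO libraries.

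Exons of Adgre5 share 23.8% of their bases with Ddx39, a helicase gene on the opposite strand, and the sources used here do not say if reads were assigned by strand. Ddx39 itself was lower, at 116 ± 2.90 CPM with DSF and 131 ± 1.79 CPM with DMSO (edgeR's adjusted p = 0.00136), and its part in the Adgre5 counts was not tested. The microRNA gene Mir1668, in an exon of Adgre5, was listed at 0.

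Cd55, the gene of a CD97 ligand, moved far less than the receptor gene. It lies on chromosome 1 at 130439027 to 130462744 (ENSMUSG00000026399) and stood at 16.1, 15.3 and 15.4 TPM in DSF libraries, against 14.0, 12.3 and 12.2 TPM in DMSO libraries. All DSF libraries lay above all DMSO libraries, by a margin narrower than the spread within DMSO. The log2 fold change was 0.23 ± 0.07 (SE), or 1.18-fold. The TPM of Adgre5 was 25.8 ± 0.711 times that of Cd55 with DSF, against 8.73 ± 1.20 times with DMSO (SD, n = 3 each). Its exons share 102 bases with Gm16083 on the opposite strand, which stayed at or below 0.256 CPM. Its close relative Cd55b reached at most 0.0554 CPM in a DSF library and 0.0455 CPM in a DMSO library, under the floor of 3 counts, which is worth 0.137 to 0.166 CPM. Thy1, another reported ligand of CD97, averaged 611 TPM with DSF and 606 TPM with DMSO and did not pass (edgeR's adjusted p = 0.764).

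Cd44 was the other gene with a large difference. It lies on chromosome 2 at 102811141 to 102901665 (ENSMUSG00000005087), and no other annotated gene shares its exons. Its TPM was 129, 122 and 126 in DSF libraries, against 53.6, 52.0 and 57.7 in DMSO libraries. The groups were far apart, with the lowest DSF library more than double the highest DMSO library. The log2 fold change was 1.20 ± 0.04 (SE), or 2.30-fold, the 16th largest rise among the same 2299 genes. Among all 14318 tested genes it was the 170th largest. The table counts whole genes, so the standard and the variant forms of CD44, which differ in the exons they keep, were not told apart.

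**Figure D1:**
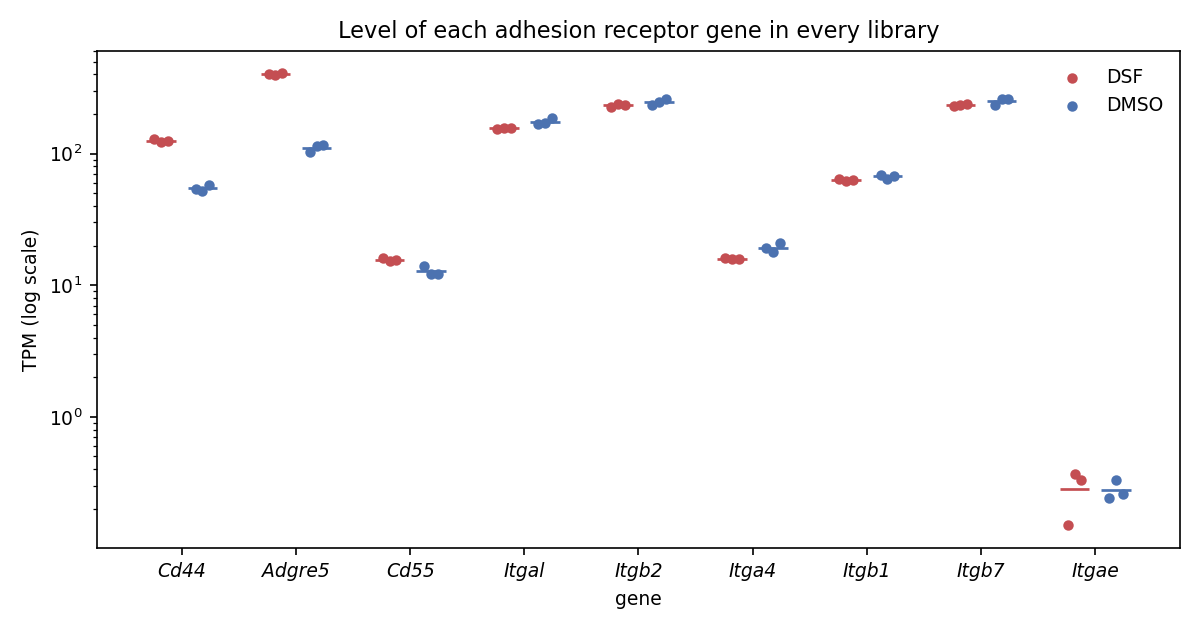
TPM on a log scale of the 9 genes in the 3 DSF and the 3 DMSO libraries, with a point per library and a line at each group's mean. Adgre5 and Cd44 sit at 402 and 126 TPM with DSF, against 111 and 54.4 TPM with DMSO, and the other genes lie close to their DMSO levels.

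The 2 chains of LFA-1 were abundant and slightly lower with DSF. Itgal, for the alpha chain, lies on chromosome 7 at 127296260 to 127335138 (ENSMUSG00000030830) and stood at 154, 157 and 157 TPM in DSF libraries, against 168, 172 and 185 TPM in DMSO libraries. No DSF library reached the lowest DMSO library, and the log2 fold change was -0.18 ± 0.03 (SE). Itgb2, for the beta chain that LFA-1 shares with other leukocyte integrins, lies on chromosome 10 at 77530252 to 77565708 (ENSMUSG00000000290). Its TPM was 225, 239 and 232 in DSF libraries, against 234, 248 and 260 in DMSO libraries. These TPM ranges overlapped, whereas in CPM, at 413, 441 and 437 with DSF against 445, 475 and 469.9 with DMSO, they stood just apart. The log2 fold change was -0.11 ± 0.03 (SE). Itgal ran at 0.670 ± 0.0137 of the TPM of Itgb2 with DSF and at 0.708 ± 0.0112 with DMSO (SD, n = 3 each), with all DSF libraries below all DMSO libraries.

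Itga4, the alpha chain gene of VLA-4 and of the gut homing integrin, had the largest fall of the 9. It lies on chromosome 2 at 79255426 to 79333123 (ENSMUSG00000027009) and stood at 16.1, 15.7 and 15.8 TPM in DSF libraries, against 19.1, 17.9 and 20.8 TPM in DMSO libraries. The DSF libraries were nearly equal to each other and all lay below the DMSO libraries. The log2 fold change was -0.30 ± 0.04 (SE), a level of 0.814 of that in DMSO. Exons of Itga4 share 8.04% of their bases with Cerkl on the opposite strand, which averaged 5.81 ± 0.716 CPM with DSF and 5.67 ± 0.834 CPM with DMSO, and Itga4 itself averaged 119 CPM with DSF and 146 CPM with DMSO.

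Both beta chain genes that can pair with Itga4 exceeded it in TPM and differed little between the groups. Itgb1, on chromosome 8 at 128685654 to 128733200 (ENSMUSG00000025809), had 64.0, 61.6 and 62.8 TPM in DSF libraries, against 69.1, 64.3 and 67.7 TPM in DMSO libraries. The groups stood narrowly apart, at a log2 fold change of -0.13 ± 0.04 (SE). Itgb7, on chromosome 15 at 102215995 to 102231944 (ENSMUSG00000001281), had 228, 235 and 239 TPM in DSF libraries, against 236, 261 and 261 TPM in DMSO libraries. Its groups overlapped in TPM and in CPM, and the log2 fold change was -0.02 ± 0.03 (SE), with an interval of ± 2 SE from -0.09 to 0.05. The TPM of Itga4 was 0.253 ± 0.00240 of that of Itgb1 with DSF and 0.287 ± 0.0167 with DMSO (SD, n = 3 each), and these ratios did not overlap. Against Itgb7 the TPM ratio of Itga4 was 0.0677 ± 0.00234 with DSF and 0.0763 ± 0.00661 with DMSO, and these ratios overlapped. Itgb7 was 3.73 ± 0.146 times as high as Itgb1 in TPM with DSF and 3.78 ± 0.330 times with DMSO, with overlapping libraries. Both ratios with Itgb7 also rest on the length given to Itgb7, which differed between the groups as described below. In CPM Itga4 was at 119 in each DSF library, against 147, 137 and 155 in DMSO libraries. Itgb7 was at 309, 316 and 317 CPM in DSF libraries, against 304, 324 and 331 CPM in DMSO libraries.

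Itgae, the alpha chain gene of the epithelium-binding integrin, was close to absent. It lies on chromosome 11 at 73090583 to 73147446 (ENSMUSG00000005947) and had 8, 21 and 20 counts in DSF libraries, against 13, 21 and 15 in DMSO libraries. All libraries were above the floor of 3 counts, and the groups overlapped entirely. The log2 fold change of 0.05 ± 0.36 (SE), with an interval of ± 2 SE from -0.66 to 0.77, spans changes larger than those of the other integrin genes, which would not be detectable at this depth.

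**Figure D2:**
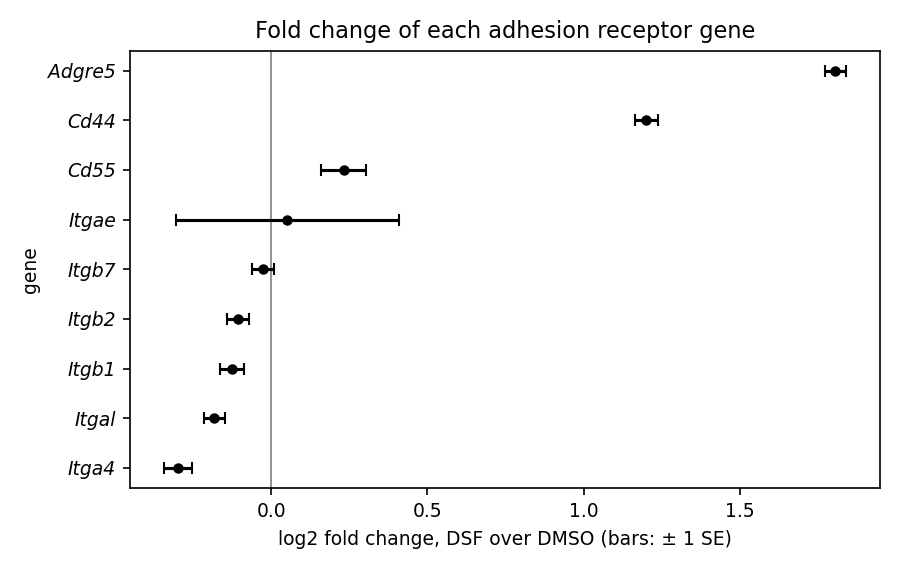
Log2 fold change of DSF over DMSO for each of the 9 genes, with bars of 1 SE on either side, from 3 libraries per group. Adgre5 at 1.81 and Cd44 at 1.20 lie far to the right, Cd55 at 0.23, and Itgal, Itgb2, Itga4 and Itgb1 between -0.30 and -0.11.

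All 9 genes passed the filter on low counts. By edgeR's quasi-likelihood test over all 14318 genes tested, 3 of the 9 were called as higher (Adgre5, Cd44 and Cd55) and 4 as lower (Itgal, Itgb2, Itga4 and Itgb1), at a Benjamini-Hochberg adjusted p under 0.05. Over all tested genes 22.9% were called, 11.6% as higher and 11.3% as lower. The CPM of both groups did not overlap in 7 of the 9 and in 35.4% of all tested genes. Nothing is read from these counts, since the genes were picked with this comparison in view. Without any 1 library 5 to 6 of the 9 were called, Adgre5, Cd44, Itga4 and Itgal each time. The call of Cd55 ended under DESeq2 on all 6 libraries and without DSF library 1 or DMSO library 2 or 3, and that of Itgb1 ended without DSF library 2 or 3 or DMSO library 1. That of Itgb2 ended without DSF library 1 or 3 or DMSO library 2 or 3. On the deposited TPM, tested with limma on a log2 scale, the called genes were Adgre5 and Cd44.

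With these shifts the order of the levels changed at the top. In DSF libraries the TPM ran in the order Adgre5, Itgb7, Itgb2, Itgal, Cd44, Itgb1, Itga4, Cd55 and Itgae, and in DMSO libraries in the order Itgb7, Itgb2, Itgal, Adgre5, Itgb1, Cd44, Itga4, Cd55 and Itgae. Neighbours whose libraries overlapped were Itgb7 and Itgb2 in both groups, and Itga4 and Cd55 with DSF. The 9 genes together held 1244 ± 10.5 TPM with DSF and 940.1 ± 41.6 TPM with DMSO (SD, n = 3 each). Adgre5 made up 32.3 ± 0.357% of that sum with DSF and 11.8 ± 0.324% with DMSO, and Cd44 10.1 ± 0.306% with DSF and 5.79 ± 0.243% with DMSO. Adgre5 had 2.58 ± 0.0467 times the TPM of Itgal with DSF, against 0.635 ± 0.0261 times with DMSO.

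**Figure D3:**
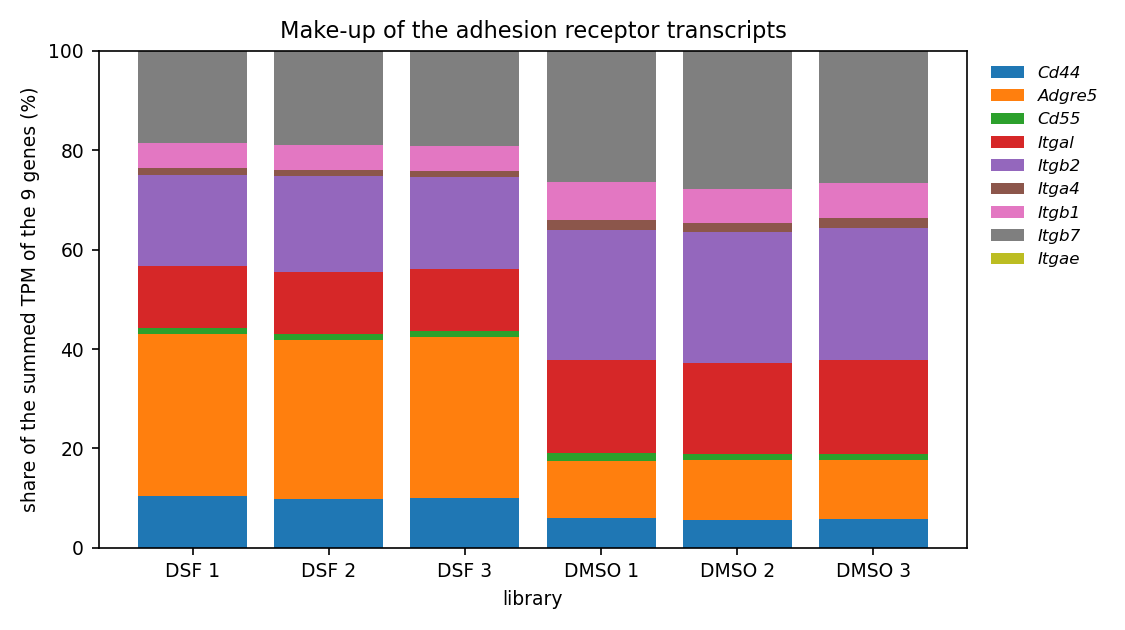
Share in percent of the summed TPM of the 9 genes that each gene holds, a stacked bar per library, DSF libraries on the left and DMSO libraries on the right. Adgre5 takes 31.9 to 32.6% in DSF libraries, against 11.5 to 12.1% in DMSO libraries, while Itgb7, Itgb2 and Itgal take smaller shares with DSF. These are shares of a sum that is larger with DSF. The log2 fold changes of Itgb7, Itgb2 and Itgal themselves were -0.02, -0.11 and -0.18.

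A second quantity in the same table differed most for Itgb7 among the members measured. The ratio of a gene's count to its TPM follows the transcript length that the authors' estimate gave the gene in a library. It was scaled here by each library's median over 9046 tested genes with at least 5 TPM in every library and set to 100 for the DMSO mean. For Itgb7 it was 109, 108 and 106 in DSF libraries, against 99.9, 98.2 and 102 in DMSO libraries, so the groups did not overlap. The change was larger than in 90.3% of these genes. In the other 7 genes measured the DSF means lay between 98.1 and 101, where 57.3% of all genes stayed within 2% of their DMSO mean. The level of Itgb7 therefore differed more between the groups in TPM, by -0.11 on the log2 scale, than in counts, by -0.02. Which transcripts of Itgb7 make up the longer mean length was not tested.

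**Figure D4:**
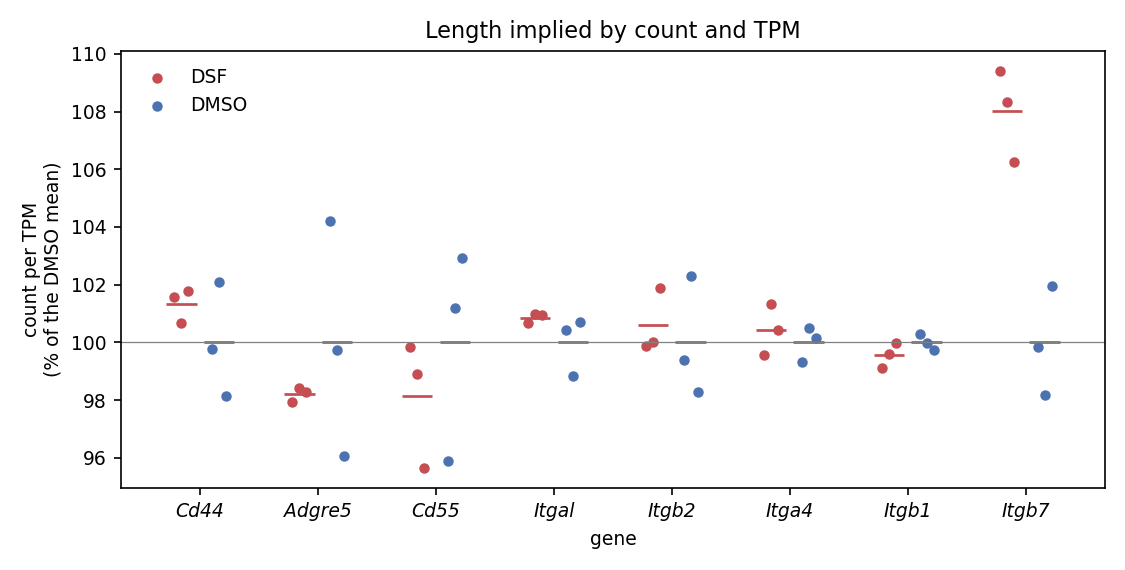
Count per TPM of each gene in the 3 DSF and 3 DMSO libraries, as a percentage of the gene's DMSO mean, with a line at each group's mean and without Itgae, whose TPM was too low. Itgb7 averages 108% in DSF libraries, above all its DMSO libraries, and the other genes lie around 100%.

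The authors' deposited table also compares both groups with a group coded DC, which the labels do not explain and whose libraries were not analysed here. In that table the log2 fold change of Adgre5 was 1.81 for DF over DO and -0.02 for DC over DO, and that of Cd44 was 1.20 and -0.08. For Itga4 the table gives -0.30 for DF over DO and -0.21 for DC over DO, for Itgb1 -0.12 and -0.12, for Itgal -0.18 and -0.05, and for Cd55 0.23 and 0.09. For Itgb2, Itgb7 and Itgae the authors' deposited table gives -0.10, -0.02 and 0.05 for DF over DO, and -0.01, -0.10 and 0.30 for DC over DO. Both comparisons in the authors' deposited table share the DO libraries.

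Likeness to the 2 genes with the largest differences was measured as Pearson's r of log2 CPM over the 6 libraries, among 8996 other genes averaging 10 CPM or more. With 2 groups far apart, r mostly follows the group, and 155 genes reached 0.99 with Cd44 and 160 with Adgre5. Closest to Cd44 were the activation marker gene Cd69 (r = 0.9998), at 128 CPM with DSF and 43.9 CPM with DMSO, the glucose transporter gene Slc2a3 (r = 0.9996) and the transcription factor gene Rfx3 (r = 0.9995). Closest to Adgre5 were Ralgds (r = 0.9998), for an exchange factor of Ral GTPases, at 327 CPM with DSF and 24.8 CPM with DMSO, then the vimentin gene Vim (r = 0.9998) and Tagap (r = 0.9996).

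Outside the 9 genes, some adhesion genes were higher and others lower with DSF. In 9 lists of the pathways around these receptors 141 of 171 genes were tested. By edgeR's test 28 were higher in DSF libraries, 29 were lower and 84 did not pass, so 40.4% were called beside 22.9% of all tested genes. Their median log2 fold change was -0.00, as that of all tested genes, and their median absolute change was 0.14, against 0.12 over all tested genes. On log2(TPM + 1) limma called 16 of them as higher and 9 as lower. The lists were chosen with earlier results of these data known, so nothing is read from these shares.

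Among genes that act on integrin activation or tie integrins to actin, Vcl and Flna rose and Rassf5 fell. Of 36 tested genes for integrin activation and cytoskeletal linkage 12 were higher, 6 lower and 18 did not pass, at a median log2 fold change of 0.03. The list mixes genes that promote activation with genes that restrain it, so these numbers give no direction of activation. Vcl, for vinculin, which ties talin to actin, rose to 49.7 ± 1.41 CPM with DSF, against 25.4 ± 0.421 CPM with DMSO (edgeR's adjusted p = 9.3e-15). Flna, for filamin A, which binds actin and the tails of beta chains, averaged 830.4 ± 21.1 CPM with DSF and 577 ± 30.1 CPM with DMSO (adjusted p = 2.86e-13). Rassf5, for RAPL, a RAP1 effector that binds LFA-1, fell to 158 ± 1.45 CPM with DSF, against 213 ± 6.88 CPM with DMSO (adjusted p = 7.67e-11). Exons of Vcl overlap Ap3m1 and those of Rassf5 overlap Eif2d, both on the opposite strand. Cytip, the list's most abundant gene in TPM and that of a cytohesin-binding protein, rose 1.12-fold (adjusted p = 0.00652).

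Ezr and Msn, for linkers between CD44 and actin, rose a little. Of 13 tested genes for hyaluronan and CD44 partners 2 were higher, 2 lower and 9 did not pass, at a median log2 fold change of 0.10. Ezr, for ezrin, averaged 608 ± 6.17 CPM with DSF and 504 ± 8.60 CPM with DMSO (edgeR's adjusted p = 3.86e-08). Msn, for the related protein moesin, averaged 1101 ± 19.3 CPM with DSF and 966 ± 12.2 CPM with DMSO (adjusted p = 1.23e-05). Rdx, for the related protein radixin, did not pass, at 171 ± 1.74 CPM with DSF and 172 ± 10.5 CPM with DMSO (adjusted p = 0.899). Cemip2, for a cell surface hyaluronidase, fell to 6.27 ± 0.578 CPM with DSF, against 9.42 ± 1.11 CPM with DMSO (adjusted p = 0.000497), and this call ended with limma on log2 TPM. Srgn, for serglycin, the most abundant in TPM, did not pass (adjusted p = 0.0898).

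Among other integrin subunits Itga5 changed most. Of 14 tested genes listed outside the 6 above, which include the integrin-like gene Itgbl1, 3 were higher, 1 lower and 10 did not pass. Their median log2 fold change was 0.01. Itga5, for the alpha chain of the fibronectin receptor that pairs with the Itgb1 product, rose 2.23-fold to 12.2 ± 0.564 CPM with DSF, against 5.42 ± 1.04 CPM with DMSO (edgeR's adjusted p = 8.37e-09). Itgav, the most abundant in TPM, was at 202 ± 3.52 CPM with DSF and 218 ± 7.34 CPM with DMSO (adjusted p = 0.0275), a call that ended without DSF library 1, 2 or 3 or DMSO library 3 (adjusted p = 0.0564, 0.172, 0.0822 and 0.146). The Itgav call also ended with limma on log2 TPM. Itga2b, a platelet integrin gene, was at 10.6 ± 0.643 CPM with DSF and 8.65 ± 0.720 CPM with DMSO (adjusted p = 0.0459). That call ended without any of the 3 DSF libraries or without DMSO library 1 or 2 (adjusted p = 0.0643 to 0.173).

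Of 8 tested integrin ligand genes 1 was higher, 1 lower and 6 did not pass, at a median log2 fold change of 0.07. Spp1, for osteopontin, which binds integrins and CD44, fell to 67.2 ± 1.39 CPM with DSF, against 85.7 ± 4.25 CPM with DMSO (edgeR's adjusted p = 1.38e-06). Icam1, for a ligand of LFA-1 that activated T cells also carry, was at 77.3 ± 3.00 CPM with DSF and 70.6 ± 2.27 CPM with DMSO (adjusted p = 0.0495). Its call ended without DSF library 2 or 3 or DMSO library 1 or 2 (adjusted p = 0.195, 0.1497, 0.136 and 0.1199), and also with limma on log2 TPM.

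Both fucosyltransferase genes that build selectin ligands fell. In the list of selectins, their ligand and its glycosylation, 6 of 13 tested genes were lower, 1 was higher and 6 did not pass, at a median log2 fold change of -0.16. Fut7, for the fucosyltransferase that completes selectin-binding glycans, fell to 6.98 ± 0.654 CPM with DSF, against 10.5 ± 0.821 CPM with DMSO (edgeR's adjusted p = 0.00022). Fut4, for a related enzyme, fell to 5.19 ± 0.681 CPM with DSF, against 7.83 ± 0.415 CPM with DMSO (adjusted p = 0.00097), and this call ended with limma on log2 TPM. Selplg, for PSGL-1, the protein that carries these glycans, averaged 402 TPM with DSF and 403 TPM with DMSO and did not pass (adjusted p = 0.422).

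In the list of adhesion receptors of the immunoglobulin family, Cd2 rose, and Cd48 and Jaml fell. Of the 20 tested genes listed, which include the scavenger receptor family genes Cd5 and Cd6, 1 was higher, 7 lower and 12 did not pass. Their median log2 fold change was -0.13. Cd2, for a costimulatory adhesion receptor, rose to 248 ± 4.76 CPM with DSF, against 212 ± 3.96 CPM with DMSO (edgeR's adjusted p = 7.34e-06), and Cd48, for its ligand in mice, fell to 55.6 ± 3.07 CPM with DSF, against 68.4 ± 2.10 CPM with DMSO (adjusted p = 4.04e-05). Jaml, for a junctional adhesion molecule, fell to 0.754 of its DMSO level (adjusted p = 1.16e-05). Of 12 tetraspanin genes, for membrane organisers that bind integrins, 2 were higher, 1 lower and 9 did not pass, at a median of 0.06. Tspan32 and Cd81 rose 1.48-fold and 1.40-fold (adjusted p = 5.11e-10 and 2.36e-08). Cd53, the most abundant in TPM, was at 0.926 of its DMSO level (adjusted p = 0.016), a call that ended without DSF library 2 or 3 or DMSO library 1 (adjusted p = 0.0894, 0.106 and 0.0930). The Cd53 call also ended with limma on log2 TPM.

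Of 9 tested genes for other adhesion G protein-coupled receptors, CD97 ligands and complement regulators, 1 was higher, 1 lower and 7 did not pass, at a median log2 fold change of -0.02. Adgrl1 rose 1.19-fold (edgeR's adjusted p = 0.00679, a call that ended with limma on log2 TPM). Adgrg5 fell to 0.861 of its DMSO level (adjusted p = 0.00864), a call that ended without DSF library 1 or DMSO library 1 (adjusted p = 0.0730 and 0.0582). The Adgrg5 call also ended with limma on log2 TPM. Of 16 tested genes listed for TGF-beta signalling, which induces Itgae in T cells, 5 were higher, 4 lower and 7 did not pass. Their median log2 fold change was -0.02. That list also holds the transcription factor genes Runx3, Zfp683 and Hic1, and Runx3 was among its lower genes. Ski, for a SMAD corepressor, rose to 150.5 ± 4.07 CPM with DSF, against 82.1 ± 6.38 CPM with DMSO (adjusted p = 5.73e-15), and Tgfb3 rose 1.75-fold (adjusted p = 9.48e-07). Skil, for a related corepressor, fell to 0.840 of its DMSO level (adjusted p = 1.48e-05), a call that ended with limma on log2 TPM. Tgfb1, the most abundant in TPM, did not pass (adjusted p = 0.648). Exons of Itgav, Icam1, Spp1, Ezr, Msn, Cemip2, Adgrl1, Jaml, Tspan32, Cd81 and Tgfb3 also overlap another annotated gene, and what such genes add to their counts was not tested.

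**Figure D5:**
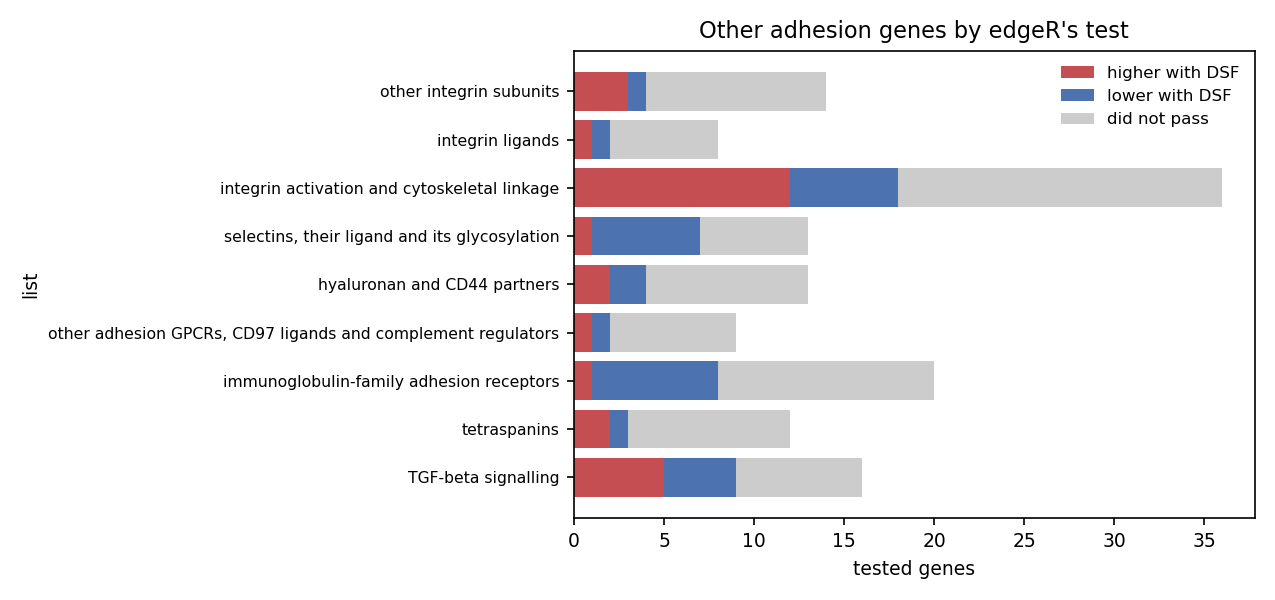
Number of tested genes of each pathway list that were higher with DSF, lower with DSF or did not pass edgeR's test at an adjusted p under 0.05. The linkage list holds 12 higher and 6 lower genes of 36, and the selectin list 1 higher and 6 lower of 13.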

How the data were processed

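The labels' protocols name a SMARTER kit and 1 ug of total RNA per library, and the build was GRCm38, per the submitters' processing notes. Aligner, counter, annotation and strand setting: not given in the sources used here. Per gene and library, the deposited table gives estimated counts and TPM, with the authors' TPM means, a length in bases of unstated kind, and their ratio, log2 fold change and p-values, per the file headers. Columns carry letters and numbers. The deposited means headed DF and DO equal those of the B and A columns in all 55536 genes within 0.0001 TPM, against 28853 genes when crossed. DF and DO were read as DSF and DMSO and the numbers as replicate numbers, which no label states outright. Columns per library left unused numbered 0.

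The design had assumed counts that may be tested as such, so the expected counts were rounded to whole numbers. filterByExpr kept 14318 genes and removed 41218. TMM factors were 0.995 to 1.01. The quasi-likelihood test of edgeR 4.0.16 in R 4.3.3 used the group as its only term, with Benjamini-Hochberg adjustment over all tested genes. Each SE was derived from the log2 fold change and the F statistic and is approximate. CPM are TMM-scaled. Alternatives were DESeq2 1.42.0, its size factors, other filters, a replicate block, limma 3.58.1 on log2(TPM + 1) and log2(TPM + 0.1), and leaving out each library. The pipeline was tested on simulated data with 200 changed genes. Replicates differed by more than counting error, at 1.95 to 4.23 times the chi-square that counting error alone would give. Floors cover counting error only.

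The 9 genes and all lists were chosen with earlier results of these data known. Named from each list were the 3 called genes of smallest p with a mean of at least 5 CPM and the tested gene of highest TPM. Outside that rule, Rdx was named beside Ezr and Msn, and Itgbl1, Cd5, Cd6, Runx3, Zfp683 and Hic1 to describe their lists. Likeness was computed for members with an absolute log2 fold change of at least 0.58. Motifs, count per TPM and ranks were added after the data were seen. A gene that the naming rule gave is not reported here. Positions came from GENCODE M21.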

Additional observations from a re-analysis of the deposited data

How the results depend on the processing

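Each of the 9 log2 fold changes stayed within the SD of its replicates under DESeq2, DESeq2 size factors, both other filters, the replicate block and every left-out library. By limma on log2 TPM, those of Adgre5 (1.85 with a pseudocount of 1 and 1.86 with 0.1) and Itgb7 (-0.11 with either) moved by more. Without any 1 library Adgre5 ranged from 1.79 to 1.83, Cd44 from 1.18 to 1.23, Itga4 from -0.34 to -0.25, Itgb7 from -0.06 to 0.01 and Itgae from -0.17 to 0.34. Against 3276 called genes and 57 called pathway genes, limma on log2 TPM called 1383 genes with a pseudocount of 1 (837 higher, 546 lower) and 1368 with 0.1, and 25 pathway genes with either. These settings change both the scale and the test, and the cause was not tested. DESeq2 called 2336 genes and lost the calls of Cd55, Itga2b, Icam1 and Adgrg5, and without any 1 library 2565 to 2972 genes and 44 to 52 pathway genes were called. Of 25 named pathway genes that were called, 16 were called under every alternative.

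Equal replicate numbers share only a number. Their deviations correlated at 0.035 to 0.055 between the groups, and each library correlated best with its own number, a hint from the data, not the design. With the replicate block 3829 genes and 62 pathway genes were called. Depth limits Itgae, with 8 to 21 counts per library.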
